A study of Mus musculus with 18 samples.

Results

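The genes described here encode the subunits of the ARP2/3 complex: *Actr2*, *Actr3*, *Arpc1a*, *Arpc1b*, *Arpc2*, *Arpc3*, *Arpc4*, *Arpc5* and *Arpc5l*. They were chosen by symbol and not by a measured value, as every entry of the normalized count table whose symbol, alone or as part of a joint name, is a subunit. Earlier results of these data were known when the choice was made. This gave 9 of 62197 genes in the table, 25177 of which carry a symbol, and all 9 passed the filter, set at 10 normalized counts or more in no fewer than 3 libraries, that left 17875 genes to test. The measurements are bulk RNA-seq of mouse bone marrow-derived dendritic cells (DCs), with 3 libraries in each of 6 conditions. Cultures ran for 10 days with GM-CSF supplied as supernatant of transfected J558 cells. cPLA_2_ WT cells carried an intact *Pla2g4a*, the gene of cytosolic phospholipase A_2_ (cPLA_2_), whereas cPLA_2_ KO cells came from mice in which *Itgax-cre* deletes floxed *Pla2g4a*, so that deletion takes place only in cells that have switched on the *Itgax* (CD11c) promoter. Nonconfined cells were taken at the end of culture, confined cells were held for 4 h under a ceiling at a height of 3 µm, and the remaining cells were labelled as given 100 ng/ml lipopolysaccharide (LPS) for 30 min (25 min in the methods), washed and collected the next day. The culture methods state marrow from mice aged 6 to 8 weeks, whereas an older range is given for mice of the experiments in general, male or female. Breeders had been backcrossed to C57BL/6. Only semiadherent cells were kept, a step meant to leave out granulocytes and macrophages. Whether the controls carried the Cre transgene is not given in the sources used here. Libraries were made with stranded mRNA kits, and which kit served which library is not given in the sources used here either. The protocol text attached to every sample mentions LPS. Groups here follow the titles and treatment labels, which name LPS for 6 libraries. Depth ranged from 33027230 to 61300021 reads per library (median 40950397.5). The 3 libraries of a condition are described as biological replicates, and how many mice or cultures they came from is not given in the sources used here, so p-values measure the spread between libraries.

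As background, the ARP2/3 complex binds the side of an existing actin filament and starts a new one there, which builds the branched networks of lamellipodia, phagocytic cups and the cell cortex. The proteins ARP2 (*Actr2*) and ARP3 (*Actr3*) resemble actin and act as the first subunits of the new branch, ARPC2 and ARPC4 form the core that sits on the mother filament, ARPC1 takes part in the contact with activators of the WASP family, and ARPC3 and ARPC5 bind at the periphery of the ARP3 and ARP2 sides. ARPC1 and ARPC5 each come as a pair of alternative isoforms from separate genes, ARPC1A or ARPC1B and ARPC5 or ARPC5L, and ARPC1B prevails in blood cells.

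Values are normalized counts, that is reads divided by a factor for each library, and these factors did not make the library totals equal. Nonconfined libraries summed to 34125099.9 ± 164535 normalized counts in cPLA_2_ WT and 34932739 ± 363978 in cPLA_2_ KO cells (mean ± SD, n = 3 here and throughout). The sums were 39890269.8 ± 697914 for cPLA_2_ WT and 35818964 ± 562557 for cPLA_2_ KO libraries under confinement. Those labelled LPS reached 48718669.5 ± 740057 (cPLA_2_ WT) and 48721816 ± 756570.1 (cPLA_2_ KO), with no overlap with any other condition. Every comparison was therefore made with the deposited scaling and with all library totals made equal (same total). The choice moves all genes together: for confinement of cPLA_2_ WT cells the median log2 fold change over the 17875 genes tested was -0.0055 with the deposited scaling and -0.23 with the same total, and for LPS it was 0.020 and -0.46. For confinement of cPLA_2_ KO cells the medians were 0.010 and -0.024, and for confined cPLA_2_ KO against confined cPLA_2_ WT cells 0.041 and 0.19. Changes relative to these medians, which differ little between the scalings, are given for some members. Which scaling is nearer to RNA per cell was not tested.

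The targeted gene was read first, as a check of the genotype labels. *Pla2g4a* gave 697, 686 and 770.4 normalized counts in nonconfined cPLA_2_ WT and 548, 542 and 533 in nonconfined cPLA_2_ KO libraries. In confined cells it gave 1369, 1430.3 and 1321 (cPLA_2_ WT) and 923, 871 and 919.5 (cPLA_2_ KO). The cPLA_2_ KO libraries lay below the cPLA_2_ WT libraries in both settings, with log2 fold changes of -0.41 (adjusted p = 1.90e-04) and -0.60 (adjusted p = 3.81e-08), and much transcript of the gene remained. In the libraries labelled LPS the order turned: 1005, 969 and 967 under the cPLA_2_ WT label and 1065, 1032 and 1028 under the cPLA_2_ KO label. The Y-linked *Ddx3y* was at 3.05, 0 and 1.97 in nonconfined cPLA_2_ WT and at 949, 981 and 874 in nonconfined cPLA_2_ KO libraries. Confined libraries followed the same split, with 0, 1.72 and 2.37 in cPLA_2_ WT and 1036, 920.2 and 948 in cPLA_2_ KO cells. In the libraries labelled LPS, however, *Ddx3y* read 1271, 0 and 662 under the cPLA_2_ WT label and 2.12, 1476 and 783 under the cPLA_2_ KO label, and *Eif2s3y*, *Kdm5d* and *Uty* showed the same mixture.

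Sex of the donor mice and genotype therefore cannot be told apart in the nonconfined and confined libraries, and the genotype labels of the libraries labelled LPS are not borne out. Across those labels, replicate 3 of both had a squared difference 2.45 times that of sampling noise (median over genes of low count), less than any other pair of LPS libraries, and replicate 1 and 2 of the cPLA_2_ WT label were close to 2 and 1 of the cPLA_2_ KO label (3.09 and 2.59), against 5.49 between replicates 1 and 2 of the cPLA_2_ WT label. Replicates of nonconfined cPLA_2_ WT cells lay between 2.64 and 2.86 on this measure. No pair of libraries was as close as sampling noise allows if every recovered read is an independent draw. Sequencing was paired-end, and whether both reads of a pair were counted is not given in the sources used here. If both were, samples that differ by counting alone would also lie above sampling noise on this measure. The measure covers counting noise only, so it cannot show whether the matched LPS libraries came from separate samples. Each library was counted as 1 sample, and the p-values for LPS with pooled labels rest on that count. The effect of LPS is described with the genotype labels pooled, with the labelled groups beside it.

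The cell type label was read against 9 DC markers, all of which were detected in every library. *Cd74* was the most abundant in each (189379 to 335999.6 normalized counts), *Itgax* ranged from 4194 to 7192, *Zbtb46* from 468 to 1379, and *Flt3* was low (27.0 to 166). Markers of other marrow cells were likewise detected in every library, so detection alone cannot bear out the label. The macrophage marker *Csf1r* ranged from 22622 to 40724 and the neutrophil marker *S100a9* from 70713 to 169481, and the rest are given below. In bulk RNA fewer cells of a type and less RNA per cell cannot be told apart.

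*Actr2* (GRCm39 chr11:20012306-20062951, minus strand) encodes ARP2, and *Actr3* (chr1:125320642-125363464, minus strand) encodes ARP3. In nonconfined cells *Actr2* stood at 35889, 38722 and 37811 normalized counts in cPLA_2_ WT and 38619, 37833 and 38365 in cPLA_2_ KO libraries. Confined libraries held 42268, 41020.3 and 40078 (cPLA_2_ WT) and 37479, 34915 and 37152 (cPLA_2_ KO). Libraries labelled LPS held 58516, 60823 and 59235 (cPLA_2_ WT) and 59049, 58752 and 59099.8 (cPLA_2_ KO). The 6 LPS libraries were above all 12 others, confined cPLA_2_ WT libraries came next, and the nonconfined cPLA_2_ WT libraries overlapped both nonconfined and confined cPLA_2_ KO libraries. The LPS libraries were still the highest with the same total, at 49339 ± 1703 and 48865 ± 873, but both confined conditions (41614 ± 833 in cPLA_2_ WT, 41144 ± 975 in cPLA_2_ KO) lay below the nonconfined ones (44336 ± 1921 and 44227 ± 49.9) without overlap.

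For *Actr3* the values were 15417, 15987 and 15775 in nonconfined cPLA_2_ WT and 15844, 15424 and 16334 in nonconfined cPLA_2_ KO libraries. Under confinement they were 17934, 17190.3 and 17086 in cPLA_2_ WT and 14558, 14563 and 15341 in cPLA_2_ KO libraries. Libraries labelled LPS gave 24950.3, 25604 and 24558 (cPLA_2_ WT) and 24127, 24710.1 and 24426 (cPLA_2_ KO). The conditions stood in the same order as for *Actr2*, and confined cPLA_2_ KO libraries lay below every other condition. From low to high, the order with the same total was confined cPLA_2_ KO, confined cPLA_2_ WT, the nonconfined conditions, which overlapped each other, and the libraries labelled LPS. Over all 18 libraries the highest *Actr3* value was 1.76 times the lowest, and 1.33 times with the same total. *Actr3b*, a close relative of *Actr3* outside the member list, was barely detected (9.33 to 44.6).

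*Arpc2* (chr1:74275676-74307367, plus strand) and *Arpc4* encode the core that holds the complex on the mother filament. *Arpc2* ran from 14996 to 22193 normalized counts (median 16610.4), lowest in the confined libraries, where cPLA_2_ WT and cPLA_2_ KO overlapped, and highest in those labelled LPS. Its LPS libraries lay below the nonconfined ones with the same total (17573 ± 455 and 18275 ± 235 against 19387 ± 352 and 19753 ± 814). The entry that holds *Arpc4* (chr6:113355073-113391530, plus strand) is joint with its neighbour *Ttll3*, a tubulin glycylase gene, and the 2 cannot be separated in these counts.

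The joint *Arpc4* entry gave 20811, 20703 and 20980.3 in nonconfined cPLA_2_ WT and 23442, 20241 and 22055 in nonconfined cPLA_2_ KO libraries. Under confinement it gave 18107, 17258 and 17505 (cPLA_2_ WT) and 18852, 18951 and 19150.1 (cPLA_2_ KO). Libraries labelled LPS had 23492, 23424 and 22951 (cPLA_2_ WT) and 22558, 23081 and 23333 (cPLA_2_ KO). Confined cPLA_2_ WT libraries were the lowest and confined cPLA_2_ KO libraries the next lowest under the deposited scaling, neither overlapping its neighbour. Confined cPLA_2_ WT libraries were again the lowest with the same total (17833 ± 135), while the libraries labelled LPS lay below confined cPLA_2_ KO and nonconfined libraries.

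*Arpc1a* (chr5:145020679-145045571, plus strand) and *Arpc1b* (chr5:145051065-145064996, plus strand), neighbours on the same strand, encode the alternative forms of the subunit that meets activators. *Arpc1a* stayed within 2712 to 3235 normalized counts (median 3067), and all neighbouring conditions overlapped with the deposited scaling. *Arpc1b* ran from 34947 to 43510.2 (median 39171), again with each condition overlapping the next. Both genes spread out with the same total: *Arpc1b* stood at 32169.9 ± 258 and 32592 ± 237 in the libraries labelled LPS, 37717 ± 1614 in confined cPLA_2_ WT, 45049.97 ± 557 in confined cPLA_2_ KO, and 47257 ± 1489.7 and 48266 ± 2562 in nonconfined libraries. Overlap was seen within the LPS pair, within the nonconfined pair, and between confined and nonconfined cPLA_2_ KO libraries. *Arpc1a* followed the order LPS, confined cPLA_2_ WT, confined cPLA_2_ KO and nonconfined libraries on that scale too, with confined cPLA_2_ KO libraries overlapping nonconfined cPLA_2_ WT ones.

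*Arpc3* (chr5:122529941-122544243, plus strand) encodes a small subunit that bridges to ARP3. Nonconfined libraries had 17589, 17373 and 17190.1 (cPLA_2_ WT) and 19267, 17938 and 18848 (cPLA_2_ KO). Confined libraries had 23676, 22710.1 and 22530.4 (cPLA_2_ WT) and 19713, 19737 and 19893 (cPLA_2_ KO). Those labelled LPS had 24649.9, 24426 and 22967 (cPLA_2_ WT) and 23271, 24206 and 23714 (cPLA_2_ KO). Nonconfined cPLA_2_ WT, nonconfined cPLA_2_ KO and confined cPLA_2_ KO libraries followed in that order without overlap, and confined cPLA_2_ WT libraries overlapped those labelled LPS at the top. When totals were equal the LPS libraries were the lowest (19661 ± 106 and 19899 ± 747), those of the cPLA_2_ WT label overlapping nonconfined cPLA_2_ WT libraries, and confined cPLA_2_ WT libraries were the highest (23246 ± 346), clear of confined cPLA_2_ KO (22297 ± 365).

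*Arpc5* (chr1:152642293-152651331, plus strand) and *Arpc5l* (chr2:38898128-38905888, plus strand) encode the alternative forms of the subunit that tethers ARP2. *Arpc5* stood at 28752, 29951 and 29666 in nonconfined cPLA_2_ WT and 33777, 29573 and 31747 in nonconfined cPLA_2_ KO libraries. Confined libraries reached 36082, 33999.95 and 35011 (cPLA_2_ WT) and 34135, 34628 and 33193 (cPLA_2_ KO). Libraries labelled LPS reached 44432, 45356 and 45791 (cPLA_2_ WT) and 45720.04, 47793 and 46634 (cPLA_2_ KO). The LPS libraries stood clear of all others, whereas every other condition overlapped its neighbour. No gap was left with the same total between neighbouring conditions, and means lay between 34848 (nonconfined cPLA_2_ WT) and 38703 (labelled LPS cPLA_2_ KO).

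*Arpc5l* went the other way. It was at 4067, 4073 and 4263 in nonconfined cPLA_2_ WT and 4596, 4013 and 4577 in nonconfined cPLA_2_ KO libraries. In confined libraries it was at 3131, 2847 and 3037 (cPLA_2_ WT) and 3013, 3353 and 3158 (cPLA_2_ KO). Under the LPS labels it was at 3266, 2946 and 3167 (cPLA_2_ WT) and 2935, 3528 and 3473 (cPLA_2_ KO). All 12 confined and LPS libraries lay below all 6 nonconfined ones, and this held with the same total, where the nonconfined libraries had means of 4891 and 5077 and the highest mean elsewhere was 3580.03 (confined cPLA_2_ KO).

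**Figure D1:**
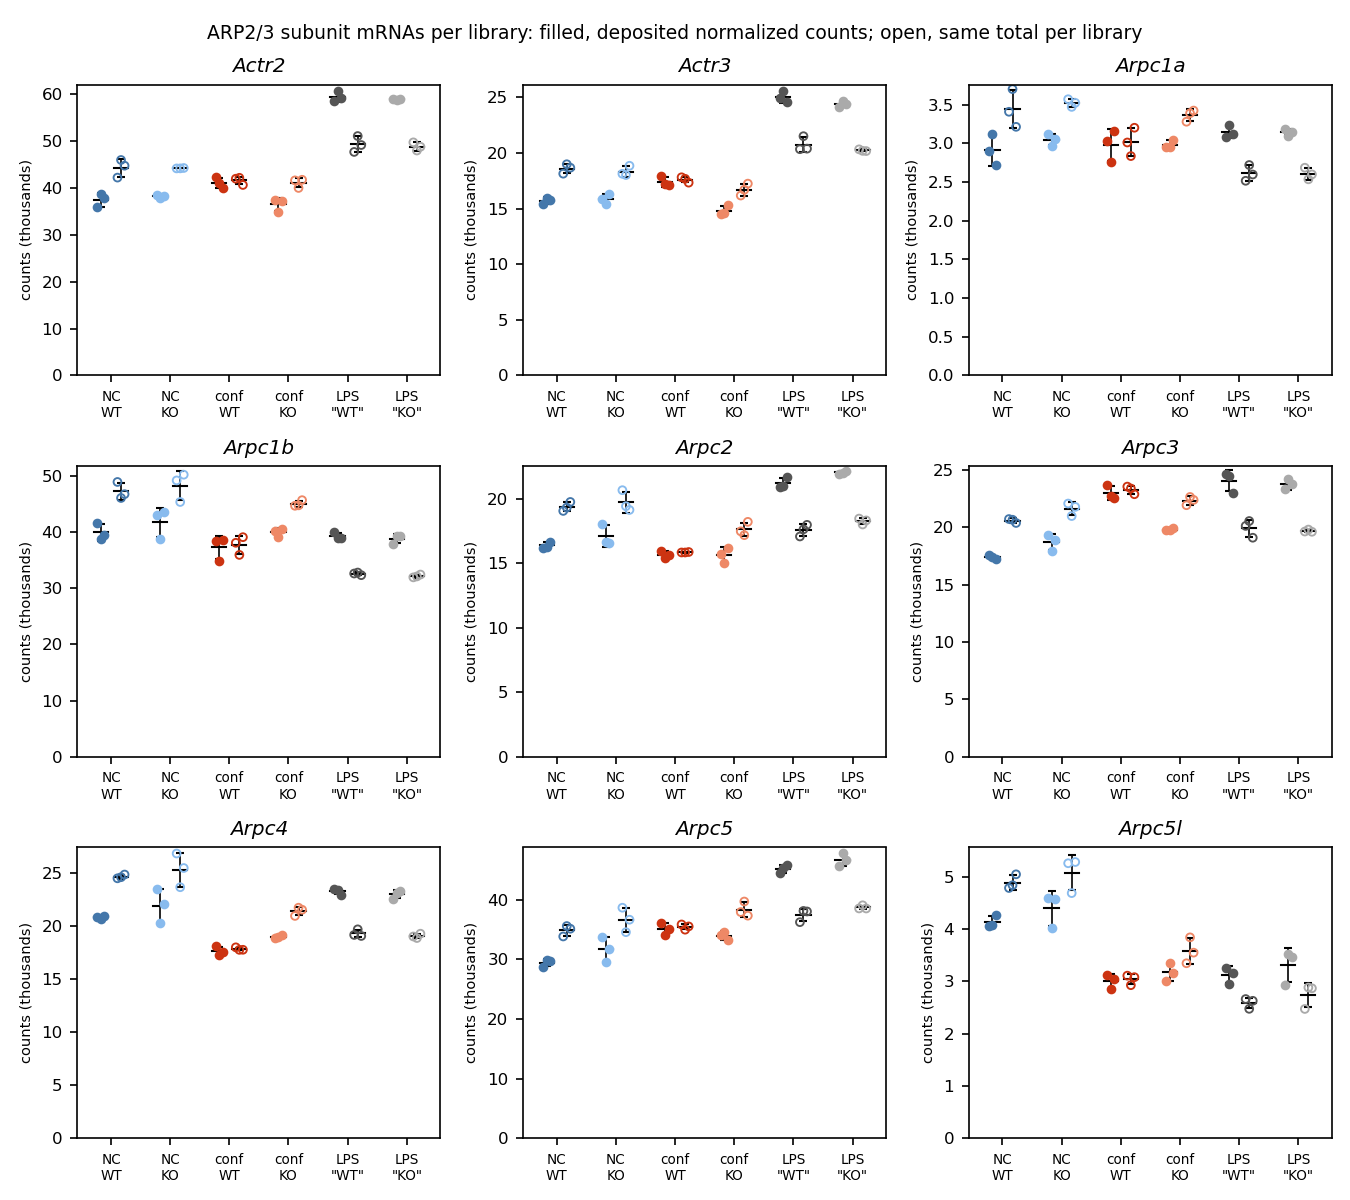
Normalized counts (vertical axes, in units of k, starting at 0) of the 9 subunits in each of the 18 libraries, with conditions along the horizontal axes (NC, nonconfined; conf, confined; LPS, labelled LPS). Filled points show the deposited scaling and open points the same total per library, horizontal lines are means and bars 1 SD of 3 libraries. *Arpc5l* is higher in the 6 nonconfined libraries than in all others under both scalings, whereas the height of the LPS libraries relative to the rest depends on the scaling for most subunits.

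Levels of different genes were set beside each other per kilobase of the canonical GENCODE transcript. On this scale, in nonconfined cPLA_2_ WT cells, *Arpc1b* came first with 25207 normalized counts per kb, ahead of *Arpc3* (19209), *Arpc5* (15382), *Arpc2* (11673) and *Actr2* (10239). *Arpc4* had 9109, a value that takes in *Ttll3* reads, and *Actr3* had 5371. The alternative isoform genes *Arpc5l* (2994) and *Arpc1a* (1745) were the lowest of the 9. The order depends on the length used: over all annotated exons *Arpc5* came first (12057 per kb) and *Arpc1b* second (7478), with *Arpc5l* (838) and *Arpc1a* (495) again last. Together the 9 genes took 0.540 ± 0.00531% of the total in nonconfined cPLA_2_ WT and 0.552 ± 0.0184% in nonconfined cPLA_2_ KO libraries. Their share was 0.484 ± 0.00462% in confined cPLA_2_ WT, 0.519 ± 0.00471% in confined cPLA_2_ KO, and 0.501 ± 0.0103% and 0.501 ± 0.00182% in the libraries labelled LPS. Confined cPLA_2_ WT libraries were lower than confined cPLA_2_ KO libraries without overlap. The most abundant genes filled 50% of the total with 679 to 681 genes in nonconfined cPLA_2_ WT libraries and with 440 to 477 in those labelled LPS.

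Confinement at a height of 3 µm changed the subunit mRNAs of cPLA_2_ WT DCs in both directions. The largest rise was that of *Arpc3* and the largest fall that of *Arpc5l*, with *Arpc4* also lower, and these 3 were called in the same direction under both scalings. With the deposited scaling 4 of 9 members rose, against 28.2% of all genes tested, and 2 fell, against 28.4%. With the same total 1 rose (20% of all genes) and 6 fell (41.3%). The members' median log2 fold change was 0.036 and -0.19, close to the medians of all genes (-0.0055 and -0.23). Cell markers differed between the same libraries with the deposited scaling. Of 7 neutrophil markers 6 fell, as did 5 of 5 mast cell and basophil and 3 of 4 eosinophil markers. Of 9 DC markers 5 fell and 2 rose (*Ccr7* and *Cd86*), and of 7 macrophage markers 3 fell and 1 rose. The part of these in the subunit values was not tested.

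*Arpc3* rose by a log2 fold change of 0.40 (SE 0.039, adjusted p = 1.37e-08) with the deposited scaling and 0.18 (SE 0.034, adjusted p = 1.42e-04) with the same total, and the 3 confined libraries were above the 3 nonconfined ones on each scale. Relative to the median of all genes this was 0.41 and 0.40. *Arpc5l* fell by a log2 fold change of -0.46 (SE 0.069, adjusted p = 6.30e-06) and -0.69 (SE 0.063, adjusted p = 8.73e-09), again without overlap. *Arpc4*, read jointly with *Ttll3*, gave -0.24 (adjusted p = 6.02e-05) and -0.47 (adjusted p = 1.59e-09). *Arpc5* rose with the deposited scaling (0.25, adjusted p = 4.94e-05) and missed the threshold with the same total (0.025, adjusted p = 0.618), although it lay above the median of all genes by 0.26 and 0.25.

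For both actin-related proteins the direction turned with the scaling. *Actr2* rose with the deposited scaling (0.13, adjusted p = 0.00638) and fell with the same total (-0.091, adjusted p = 0.0423), and *Actr3* gave 0.15 (adjusted p = 0.00229) and -0.079 (adjusted p = 0.0618). On both scales they stood above the median of all genes, by 0.14 and 0.14 for *Actr2* and by 0.15 and 0.15 for *Actr3*. *Arpc1a* turned likewise, from 0.036 (adjusted p = 0.601) to -0.19 (adjusted p = 0.00434). *Arpc1b* (-0.10) and *Arpc2* (-0.065) missed the threshold with the deposited scaling and fell with the same total (-0.33 and -0.29). The call of *Actr2* with the same total was near the threshold, and the adjusted p lay between 0.0543 and 0.199 without nonconfined cPLA_2_ WT replicate 2 or 3 or without confined cPLA_2_ WT replicate 1, 2 or 3, with log2 fold changes between -0.10 and -0.064. That call was also lost with a replicate block (adjusted p = 0.0579). For *Actr3* the value with the same total passed as lower without nonconfined cPLA_2_ WT replicate 1 (adjusted p = 0.0432).

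In cPLA_2_ KO DCs the subunits that limma called on confinement were all lower, 5 of 9 were not called with the deposited scaling, and *Arpc5l* and *Arpc4* alone kept their call under every alternative. With the deposited scaling 4 of 9 members fell, against 23.4% of all genes, and 0 rose, against 22.8%. With the same total 5 fell (25.9% of all genes) and 0 rose (20.8%). At an unadjusted p under 0.05 limma had 2 members higher with the deposited scaling (4636 of all 17875 genes) and 0 with the same total (4282 of all genes), and edgeR and DESeq2 on the recovered reads called 0 and 0 higher. *Arpc5l* fell by a log2 fold change of -0.47 (SE 0.069, adjusted p = 9.06e-06), or -0.50 (adjusted p = 1.54e-06) with the same total. For *Arpc4* the change was -0.20 (SE 0.043, adjusted p = 5.47e-04) and -0.24 (adjusted p = 3.11e-05). *Arpc2* (-0.13 and -0.16) and *Actr3* (-0.10 and -0.13) also fell on both scales, and *Actr2* did so with the same total (-0.068, adjusted p = 0.169, against -0.10, adjusted p = 0.0274). *Arpc3*, which rose most in cPLA_2_ WT cells, gave 0.083 (adjusted p = 0.0893) and 0.047 (adjusted p = 0.279), and *Arpc5* gave 0.10 and 0.066. Cell markers differed here too with the deposited scaling. Of 9 DC markers 8 fell, as did 5 of 5 mast cell and basophil and 3 of 4 eosinophil markers. Of 7 macrophage markers 4 fell and 1 rose, and of 7 neutrophil markers 2 fell and 1 rose (4 and 1 with the same total). The part of these in the subunit values was not tested.

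The call of *Actr3* with the deposited scaling (adjusted p = 0.0377) was lost without nonconfined cPLA_2_ KO replicate 1 (0.0661) or 3 (0.158) and without confined cPLA_2_ KO replicate 1 (0.11) or 2 (0.112), and that of *Arpc2* without nonconfined cPLA_2_ KO replicate 1 (0.0922) or confined cPLA_2_ KO replicate 2 (0.0787). *Actr3* also missed the threshold with no filter (0.0679), with a replicate block (0.0504) and with the compared conditions alone (0.0983). In the last of these *Arpc2* missed it as well (0.0688). *Actr2* missed the threshold with the same total without nonconfined cPLA_2_ KO replicate 1 (0.0527) or 3 (0.0642) or confined cPLA_2_ KO replicate 2 (0.113). Conversely, *Arpc5* passed as higher without nonconfined cPLA_2_ KO replicate 1 on both scales (adjusted p = 0.0089 and 0.0413), and *Arpc1b* as lower without nonconfined cPLA_2_ KO replicate 2 with the same total (0.00555).

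Whether confinement acted differently in the genotypes was tested by the difference between its effects (cPLA_2_ KO minus cPLA_2_ WT). With the deposited scaling 3 of 9 members had a lower effect in cPLA_2_ KO cells, against 15.6% of all genes, and 0 a higher one, against 10.2%. With the same total 1 was lower (11% of all genes) and 2 were higher (26.5%). *Arpc3* was lower on both scales, by a log2 difference of -0.32 (SE 0.055, adjusted p = 1.37e-04) and -0.13 (SE 0.048, adjusted p = 0.0406). With a replicate block in the limma fit the second of these calls was lost (adjusted p = 0.0539). *Actr3* (-0.24, SE 0.053, adjusted p = 0.00147) and *Actr2* (-0.20, SE 0.056, adjusted p = 0.0099) passed with the deposited scaling and not with the same total (-0.056 and -0.014). Conversely *Arpc1b* (0.23, adjusted p = 0.00376) and *Arpc4* (0.23, adjusted p = 0.00274) passed with the same total alone. The median of all genes was itself 0.051 and 0.24: relative to it *Arpc3* stood at -0.37 and -0.37, *Actr3* at -0.30 and -0.29, *Actr2* at -0.25 and -0.25, *Arpc1b* at -0.013 and -0.0087, and *Arpc4* at -0.014 and -0.010. *Arpc5l*, which fell in both genotypes, gave a difference of -0.0069 with the deposited scaling (95% interval -0.21 to 0.20). With the same total its difference was positive and missed the threshold. On that scale *Arpc5l* fell less under confinement of cPLA_2_ KO cells (-0.50) than of cPLA_2_ WT cells (-0.69). The call of *Arpc3* with the same total was lost without nonconfined cPLA_2_ WT replicate 1, 2 or 3, nonconfined cPLA_2_ KO replicate 1 or 3, confined cPLA_2_ WT replicate 1 or 2, or confined cPLA_2_ KO replicate 1 or 3, with adjusted p between 0.0542 and 0.0882. *Arpc5* passed as lower with the deposited scaling without nonconfined cPLA_2_ KO replicate 2 (adjusted p = 0.0126), and *Arpc2* as higher with the same total without nonconfined cPLA_2_ KO replicate 1 (0.0175) or confined cPLA_2_ KO replicate 2 (0.0474). At an unadjusted p under 0.05 limma had 0 members higher (2948 of all 17875 genes) and 4 lower (3470) with the deposited scaling. edgeR and DESeq2 called 0 and 0 higher and 4 and 4 lower, among them *Arpc5* (adjusted p = 0.0293 and 0.0388, against 0.0893 with limma), which passed with TMM scaling too (0.0334). Cell markers differed in this test too. Of 7 neutrophil markers 6 were higher with the deposited scaling (7 with the same total). Of 9 DC markers 7 were lower, *Ccr7* and *Cd86* among them (1 higher and 4 lower with the same total). Of 5 mast cell and basophil markers 2 were higher and 1 lower (2 and 0), and of 7 macrophage markers 0 and 2 (2 and 2). Of 4 eosinophil markers 0 were called. The part of these in the subunit values was not tested.

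Set directly against each other, confined cPLA_2_ KO and confined cPLA_2_ WT DCs differed in *Actr2*, *Actr3* and *Arpc3*, which were lower in cPLA_2_ KO cells with the deposited scaling. The count was 3 of 9 lower, against 20.6% of all genes, and 0 higher, against 18.8%. On the other scale it became 0 lower (14.6% of all genes) and 6 higher (33.6%). *Actr3* gave -0.23 (SE 0.038, adjusted p = 3.93e-05) and -0.077 (adjusted p = 0.0846), *Arpc3* -0.22 (SE 0.039, adjusted p = 1.35e-04) and -0.060 (adjusted p = 0.159), and *Actr2* -0.17 (SE 0.040, adjusted p = 0.0015) and -0.016 (adjusted p = 0.748). Relative to the median of all genes these were the 3 lowest members on both scales (-0.27, -0.26 and -0.21 with the deposited scaling). The members that were higher with the same total were *Arpc4* (0.26), *Arpc1b* (0.26), *Arpc5l* (0.23), *Arpc1a* (0.16), *Arpc2* (0.15) and *Arpc5* (0.11), and with the deposited scaling they lay between -0.044 (*Arpc5*) and 0.11 (*Arpc4*), none past the threshold. *Arpc5* missed it with the same total without confined cPLA_2_ WT replicate 2 (0.0841) or 3 (0.0587) or confined cPLA_2_ KO replicate 2 (0.125), and *Arpc1a* without confined cPLA_2_ WT replicate 2 (0.114) or confined cPLA_2_ KO replicate 2 (0.051) or 3 (0.0626). *Actr3* passed as lower with the same total without confined cPLA_2_ KO replicate 3 (0.0478), and *Arpc4* as higher with the deposited scaling without confined cPLA_2_ WT replicate 1 (0.0478).

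At an unadjusted p under 0.05, limma had 2 members higher in confined cPLA_2_ KO cells with the deposited scaling (4099 of all 17875 genes) and 1 lower with the same total (2869 of all genes), and edgeR and DESeq2 called 0 and 0 higher. This comparison shares the confined libraries with those above, so its values are not separate evidence. Between the same libraries, markers of other cells differed too: 7 of 7 neutrophil, 4 of 5 mast cell and basophil and 3 of 4 eosinophil markers were higher in confined cPLA_2_ KO cells under both scalings, and 1 eosinophil marker was lower with the deposited scaling. Of the 9 DC markers 0 were higher and 3 lower with the deposited scaling (1 and 2 with the same total), and *Ccr7* and *Cd86* were among those lower on both scales. Of the 7 macrophage markers 2 were higher and 2 lower with the deposited scaling, and *Cd14* stood apart, with 136116, 129232 and 129184 normalized counts in confined cPLA_2_ WT and 16689, 16089.9 and 16508 in confined cPLA_2_ KO libraries. The part of these in the difference was not tested, and the sums of each list are given below.

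Without confinement no subunit passed the threshold between the genotypes. All 9 log2 fold changes (cPLA_2_ KO against cPLA_2_ WT) lay between 0.013 (*Actr3*) and 0.10 (*Arpc5*) with the deposited scaling, and between -0.021 (*Actr3*) and 0.070 (*Arpc5*) with the same total. The count called by limma was 0 higher (4.78% of all genes) and 0 lower (4.11%), and with the same total 0 (4.23%) and 0 (5.85%). An unadjusted p under 0.05 was reached by 2 members, both higher, with the deposited scaling (higher in 2016 of all 17875 genes) and by 0 with the same total (1627 of all genes higher, 2614 lower). edgeR called 0 and DESeq2 1, which was *Arpc3*. For *Arpc3* the limma estimate was 0.10 with a 95% interval of 0.022 to 0.18 (adjusted p = 0.11), and its 3 cPLA_2_ KO libraries were all above the cPLA_2_ WT ones. Without nonconfined cPLA_2_ KO replicate 2, *Arpc3*, *Arpc4* and *Arpc5* passed as higher with the deposited scaling (adjusted p = 0.0368, 0.0374 and 0.0209). Cell markers did differ here, on both scales alike: 5 of 7 neutrophil, 4 of 5 mast cell and basophil, 3 of 4 eosinophil, 2 of 7 macrophage and 5 of 9 DC markers were higher in cPLA_2_ KO libraries, and 1 eosinophil and 1 DC marker lower.

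The largest subunit changes on either scale were those of the libraries labelled LPS, and 4 of the 9 signs turned with the scaling. With the genotype labels pooled, 6 of 9 members were higher in the 6 libraries labelled LPS than in the 6 nonconfined ones with the deposited scaling, against 37.2% of all genes, and 1 was lower, against 34.3%. With the same total 3 were higher (20.4% of all genes) and 6 lower (56.8%). *Actr2*, *Actr3* and *Arpc5* were higher and *Arpc5l* was lower under both scalings. The members' median was 0.37 and -0.13, beside 0.020 and -0.46 for all genes. Cell markers differed between the same libraries: 4 of 4 eosinophil markers were lower on both scales, 4 of 5 mast cell and basophil markers were lower and 1 higher with the deposited scaling (all 5 lower with the same total), and of 7 neutrophil markers 3 were higher and 3 lower (all 7 lower with the same total). Of 7 macrophage markers 3 were higher and 4 lower (2 and 4 with the same total), and 8 of 9 DC markers were higher with the deposited scaling, against 3 higher and 5 lower with the same total. The part of these in the subunit values was not tested.

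*Actr3* rose by a log2 fold change of 0.65 (SE 0.027, adjusted p = 2.44e-15) with the deposited scaling and 0.15 (adjusted p = 1.75e-05) with the same total. *Actr2* followed it closely with 0.65 (adjusted p = 5.92e-15) and 0.15 (adjusted p = 3.35e-05), and all 6 libraries of each lay above the 6 nonconfined ones on both scales. *Arpc5* rose by 0.59 (adjusted p = 1.86e-13) and 0.093 (adjusted p = 0.00578), with overlapping libraries on the latter scale. *Arpc5l* gave -0.41 (SE 0.049, adjusted p = 1.48e-07) and -0.90 (adjusted p = 1.17e-13), the lowest of the 9. *Arpc3* and *Arpc2* were higher with the deposited scaling (0.41 and 0.37) and lower with the same total (-0.091 and -0.13). *Arpc4* turned from 0.12 to -0.38, *Arpc1a* from 0.081 (adjusted p = 0.0626) to -0.42, and *Arpc1b* was -0.063 (adjusted p = 0.1) and -0.56.

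Relative to the median of all genes the 9 members spread between -0.43 (*Arpc5l*) and 0.63 (*Actr3*) with the deposited scaling and between -0.44 and 0.61 with the same total. With edgeR *Arpc4* missed the threshold (0.067, adjusted p = 0.0556), and *Arpc1b* passed it as lower with edgeR, DESeq2 and TMM scaling, and without nonconfined cPLA_2_ KO replicate 2 (adjusted p = 0.0145). *Arpc1a* passed as higher without nonconfined cPLA_2_ WT replicate 2 (adjusted p = 0.0173).

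By label, libraries labelled LPS cPLA_2_ WT had 6 members higher (33.4% of all genes) and 1 lower (29.4%) than nonconfined cPLA_2_ WT libraries, and with the same total 3 higher (17.8%) and 5 lower (52%). Libraries labelled LPS cPLA_2_ KO had 5 higher (33.4%) and 1 lower (30.1%) than nonconfined cPLA_2_ KO libraries, and 2 (18.3%) and 6 (51.4%) with the same total. *Actr2* gave 0.67 under the cPLA_2_ WT and 0.62 under the cPLA_2_ KO label, and *Arpc5l* -0.40 and -0.41, with the same signs under the same total (0.15 and 0.14, -0.92 and -0.89). The calls that differed between the labels were those of *Arpc4* with the deposited scaling (0.16, adjusted p = 0.00271, and 0.072, adjusted p = 0.155) and of *Arpc3* and *Arpc5* with the same total. Leaving out 1 library moved some of these calls. Under the cPLA_2_ WT label *Arpc1a* passed as higher without nonconfined cPLA_2_ WT replicate 2 (adjusted p = 0.0149), and with the same total *Arpc5* was lost without nonconfined cPLA_2_ WT replicate 1 (0.11) or the library labelled LPS cPLA_2_ WT replicate 2 (0.0772) or 3 (0.0852). Under the cPLA_2_ KO label *Arpc1b* passed as lower without nonconfined cPLA_2_ KO replicate 2 (0.00605), and without nonconfined cPLA_2_ KO replicate 1 *Arpc4* passed as higher (0.0153), with the same total *Arpc5* as higher (0.0123) and *Arpc2* was lost (0.0693). Between the LPS labels themselves limma called 0 members higher (0% of all genes) and 0 lower (0%) with either scaling, and none of the 9 had an unadjusted p under 0.05. Over all 17875 genes, 355 were higher and 535 lower at an unadjusted p under 0.05, and edgeR and DESeq2 called 0 genes in either direction. Since libraries with and without Y-linked transcripts stand under both LPS labels, this comparison cannot show an effect of genotype or its absence.

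**Figure D2:**
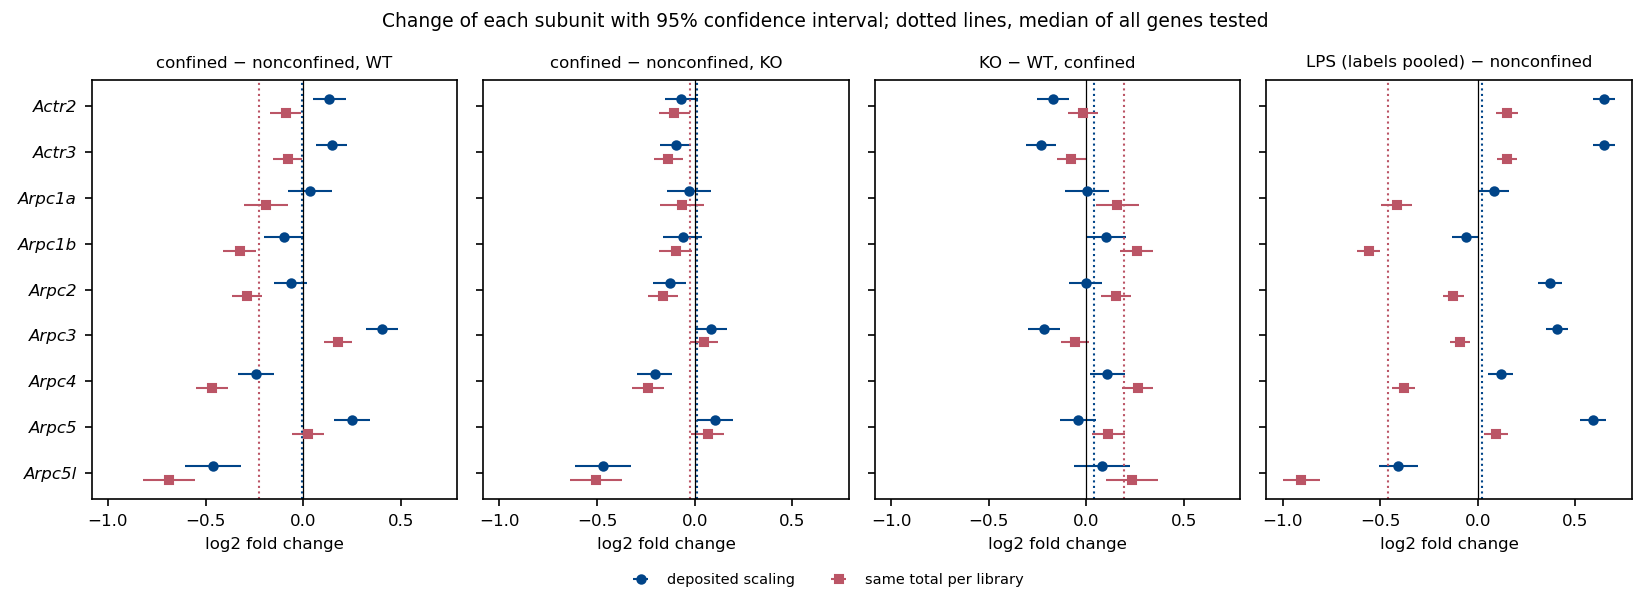
Log2 fold change of each subunit (horizontal axis) in 4 comparisons, with 95% confidence intervals from limma. Circles show the deposited scaling and squares the same total per library, and dotted lines mark the median of all 17875 genes tested. The squares lie to the left of the circles for confinement of cPLA_2_ WT cells and for LPS and to the right for cPLA_2_ KO against cPLA_2_ WT confined cells, so that *Actr2*, *Actr3* and *Arpc1a* change sign in the first comparison, *Arpc2* and *Arpc5* in the third, and *Arpc1a*, *Arpc2*, *Arpc3* and *Arpc4* in the last, while *Arpc5l* is to the left of 0 in the confinement and LPS panels on both scales.

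The ratio of 2 isoform genes within a library does not depend on how libraries are scaled. Per kilobase of transcript, the log2 ratio of *Arpc5l* to *Arpc5* was -2.35, -2.41 and -2.33 in nonconfined cPLA_2_ WT and -2.41, -2.41 and -2.32 in nonconfined cPLA_2_ KO libraries. In confined libraries it was -3.06, -3.11 and -3.06 (cPLA_2_ WT) and -3.03, -2.90 and -2.92 (cPLA_2_ KO). Libraries labelled LPS had -3.29, -3.47 and -3.38 (cPLA_2_ WT) and -3.49, -3.29 and -3.28 (cPLA_2_ KO). The nonconfined libraries of both genotypes overlapped at the top, confined cPLA_2_ KO, confined cPLA_2_ WT and LPS libraries followed without overlap, and the LPS labels overlapped each other. In linear terms *Arpc5* exceeded *Arpc5l* 5.14-fold per kb in nonconfined cPLA_2_ WT, 7.73-fold in confined cPLA_2_ KO, 8.41-fold in confined cPLA_2_ WT and 10.4-fold in labelled LPS cPLA_2_ WT libraries. The fold depends on the transcript length used, while the order of conditions does not. Without length scaling it was 7.12, 10.7, 11.7 and 14.5 in these conditions. For *Arpc1b* to *Arpc1a* the log2 ratio stayed between 3.65 and 3.94 over all libraries. Condition means ran from 3.70 ± 0.047 (labelled LPS cPLA_2_ KO) to 3.85 ± 0.12 (nonconfined cPLA_2_ WT), and in that order the gap between confined cPLA_2_ WT (3.73, 3.74 and 3.68) and confined cPLA_2_ KO libraries (3.84, 3.80 and 3.81) was the only one without overlap. These ratios were not tested and describe mRNA, not the composition of the complex.

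**Figure D3:**
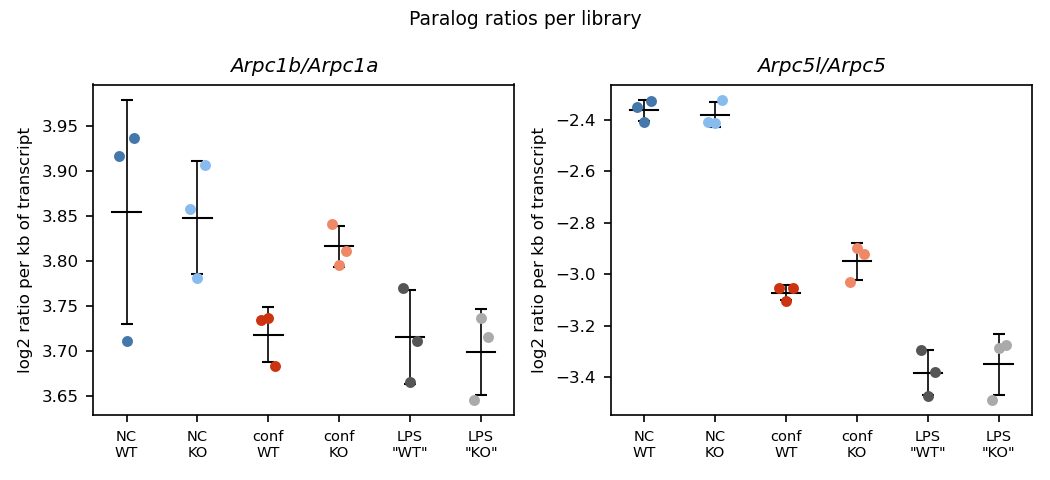
Log2 ratio per kb of transcript of *Arpc1b* to *Arpc1a* (left) and of *Arpc5l* to *Arpc5* (right) in each of the 18 libraries, by condition (NC, nonconfined; conf, confined; LPS, labelled LPS), with mean and 1 SD of 3 libraries. The *Arpc5l* to *Arpc5* ratio is highest in nonconfined, lower in confined and lowest in LPS libraries (means -2.36, -3.07 and -3.38 under the cPLA_2_ WT label), while the *Arpc1b* to *Arpc1a* ratio moves little on an axis that does not start at 0.

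Genes that act with the complex were read from lists of activators, inhibitors, GTPases and actin itself, 45 genes in all, of which 41 were tested (*Wipf3*, *Wasf1*, *Wasf3* and *Coro2b* were too low). For confinement of cPLA_2_ WT cells, 12 rose, against 28.2% of all genes, and 14 fell, against 28.4%, with the deposited scaling (10, against 20%, and 27, against 41.3%, with the same total). For confinement of cPLA_2_ KO cells, 12 rose, against 22.8% of all genes, and 13 fell, against 23.4%, with the deposited scaling (8, against 20.8%, and 14, against 25.9%, with the same total). In confined cPLA_2_ KO against confined cPLA_2_ WT cells 10 were higher (18.8% of all genes) and 11 lower (20.6%), and with the same total 23 (33.6%) and 9 (14.6%). Without confinement the genotypes differed in 1 higher (4.78% of all genes) and 1 lower (4.11%), and with the same total 1 (4.23%) and 1 (5.85%). For LPS with labels pooled, 28 rose, against 37.2% of all genes, and 7 fell, against 34.3%, with the deposited scaling (11, against 20.4%, and 26, against 56.8%, with the same total).

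For each list, the genes past the threshold with the deposited scaling follow in order of size, up to 6 a comparison, each with its log2 fold change with the deposited scaling and then with the same total. Among the WASP family and its partners (6 tested), which switch the complex on at membranes, confinement of cPLA_2_ WT cells gave 3 higher and 2 lower with the deposited scaling and 3 and 2 with the same total (all genes 28.2% and 28.4%, and 20% and 41.3% with the same total). These were *Whamm* (0.94 and 0.72), *Wasl* (0.69 and 0.47), *Was* (-0.50 and -0.73), *Wipf2* (0.49 and 0.26) and *Wipf1* (-0.34 and -0.57). *Whamm* acts on internal membranes, *Was* is the activator of blood cells and *Wasl* its widely expressed relative. Confinement of cPLA_2_ KO cells gave 3 higher and 1 lower with the deposited scaling (22.8% and 23.4% of all genes). With the same total it gave 2 and 1 (20.8% and 25.9% of all genes). The genes called were *Whamm* (0.37 and 0.33), *Was* (-0.34 and -0.37), *Wasl* (0.26 and 0.23) and *Wipf2* (0.26 and 0.23), *Wasl* missing the threshold with the same total. For LPS (3 higher and 2 lower with the deposited scaling and 3 and 3 with the same total; all genes 37.2% and 34.3%, and 20.4% and 56.8% with the same total) they were *Whamm* (1.60 and 1.10), *Wipf2* (0.86 and 0.36), *Wasl* (0.81 and 0.31), *Was* (-0.65 and -1.15) and *Wipf1* (-0.21 and -0.71). *Whamm*, the first in each, was at 302, 307 and 281 normalized counts in nonconfined and 542, 584 and 586 in confined cPLA_2_ WT libraries, 398, 408 and 364 in confined cPLA_2_ KO and 916, 924 and 996 in those labelled LPS cPLA_2_ WT, and its difference between genotypes in the effect of confinement was -0.57 and -0.38.

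The WAVE regulatory complex (9 tested) links the GTPase Rac to ARP2/3. Confinement of cPLA_2_ WT cells gave 3 higher and 3 lower with the deposited scaling and 3 and 5 with the same total (all genes 28.2% and 28.4%, and 20% and 41.3% with the same total), namely *Cyfip1* (1.17 and 0.95), *Abi1* (0.69 and 0.46), *Abi3* (-0.52 and -0.74), *Wasf2* (0.35 and 0.12), *Nckap1l* (-0.18 and -0.41) and *Brk1* (-0.16 and -0.39). *Cyfip1*, the subunit that receives Rac, had 9009.7, 8987 and 8900.2 normalized counts in nonconfined and 20079, 19959 and 20617 in confined cPLA_2_ WT libraries, and 10126, 9625 and 10155 in confined cPLA_2_ KO libraries. Its rise in cPLA_2_ WT cells was thus larger than any change of an ARP2/3 subunit in that comparison, and the difference between genotypes was -1.05 and -0.86 (adjusted p = 7.27e-13 and 5.62e-11). In cPLA_2_ KO cells confinement gave 2 higher and 3 lower with the deposited scaling (22.8% and 23.4% of all genes). With the same total it gave 1 and 3 (20.8% and 25.9% of all genes). The genes called were *Abi2* (-0.39 and -0.42), *Nckap1l* (-0.36 and -0.40), *Abi3* (-0.22 and -0.26), *Abi1* (0.16 and 0.13) and *Cyfip1* (0.13 and 0.090). For LPS (7 higher and 1 lower with the deposited scaling and 2 and 6 with the same total; all genes 37.2% and 34.3%, and 20.4% and 56.8% with the same total) the 6 largest of 8 called were *Cyfip1* (1.25 and 0.76), *Abi1* (1.16 and 0.66), *Abi3* (-1.01 and -1.51), *Wasf2* (0.51 and 0.016), *Nckap1l* (0.39 and -0.10) and *Cyfip2* (0.33 and -0.16).

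The WASH complex (5 tested) activates ARP2/3 on endosomes. On confinement of cPLA_2_ WT cells it gave 2 higher and 2 lower with the deposited scaling and 1 and 3 with the same total (all genes 28.2% and 28.4%, and 20% and 41.3% with the same total): *Washc4* (0.52 and 0.30), *Washc2* (-0.31 and -0.54), *Washc3* (-0.26 and -0.49) and *Washc5* (0.18 and -0.048). In cPLA_2_ KO cells 2 were higher and 2 lower with the deposited scaling (22.8% and 23.4% of all genes). With the same total these counts were 1 and 2 (20.8% and 25.9% of all genes). The calls were *Washc5* (0.29 and 0.25), *Washc3* (-0.19 and -0.23), *Washc4* (0.17 and 0.14) and *Washc1* (-0.12 and -0.16). For LPS 4 were higher with the deposited scaling, and 2 higher and 3 lower with the same total (all genes 37.2% and 34.3%, and 20.4% and 56.8% with the same total): *Washc4* (0.99 and 0.49), *Washc1* (0.69 and 0.19), *Washc5* (0.21 and -0.29) and *Washc2* (0.10 and -0.40). The branch stabiliser *Cttn* and its blood-cell relative *Hcls1* were read beside it. *Cttn* fell on confinement of cPLA_2_ WT cells (-0.62 and -0.84) from a low level, whereas *Hcls1* fell there with the same total alone (-0.094 and -0.32), fell in cPLA_2_ KO cells (-0.13 and -0.17) and rose for LPS (0.67 and 0.18). The GTPases *Rac1* (0.033 and -0.19), *Rac2* (-0.086 and -0.31) and *Cdc42* (-0.027 and -0.25) were lower on confinement of cPLA_2_ WT cells with the same total alone. In cPLA_2_ KO cells *Rac2* fell (-0.20 and -0.24), and for LPS *Cdc42* (0.46 and -0.035) and *Rac2* (0.43 and -0.067) were higher with the deposited scaling, *Rac2* being lower and *Cdc42* not called with the same total, where *Rac1* was lower (0.061 and -0.44).

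Of the inhibitors and debranching factors (8 tested), 1 rose and 5 fell on confinement of cPLA_2_ WT cells with the deposited scaling, and 7 fell with the same total (all genes 28.2% and 28.4%, and 20% and 41.3% with the same total; median -0.28 and -0.50, all genes -0.0055 and -0.23). They were *Arpin* (-1.05 and -1.28), *Coro2a* (-0.95 and -1.18), *Pick1* (-0.35 and -0.58), *Coro1a* (-0.35 and -0.58), *Gmfb* (0.22 and -0.0017) and *Coro1c* (-0.20 and -0.43), *Gmfb*, a debranching factor, being the only 1 to rise and not called with the same total. Confined cPLA_2_ KO against nonconfined cPLA_2_ KO cells gave 2 higher and 3 lower with the deposited scaling (22.8% and 23.4% of all genes). With the same total the counts were 2 and 4 (20.8% and 25.9% of all genes). The genes past the threshold were *Arpin* (-1.15 and -1.18), *Coro2a* (-0.48 and -0.51), *Coro1a* (-0.36 and -0.40), *Gmfb* (0.28 and 0.25) and *Coro1c* (0.25 and 0.21). *Arpin*, which competes with activators for the complex, was at 136, 143 and 141 normalized counts in nonconfined cPLA_2_ WT, 70.5, 87.5 and 48.6 in confined cPLA_2_ WT and 55.0, 70.4 and 50.1 in confined cPLA_2_ KO libraries, with no call for the difference between genotypes (-0.092 and 0.094). *Coro1c*, a coronin of branched networks, fell in cPLA_2_ WT and rose in cPLA_2_ KO cells on both scales (interaction adjusted p = 1.67e-05 and 6.04e-08), with 12747, 11432 and 11669 (cPLA_2_ WT) and 17558, 16025 and 17019 (cPLA_2_ KO) under confinement, without overlap. For LPS 4 were higher and 4 lower with the deposited scaling, and 7 lower with the same total (all genes 37.2% and 34.3%, and 20.4% and 56.8% with the same total), where the 6 largest of 8 called were *Arpin* (0.81 and 0.32), *Coro2a* (-0.73 and -1.23), *Coro1c* (-0.67 and -1.16), *Pick1* (-0.41 and -0.91), *Coro1a* (-0.33 and -0.83) and *Gmfg* (0.32 and -0.18). *Arpin* was higher in the libraries labelled LPS (302, 184 and 234 and 194, 264 and 263) with the deposited scaling alone (adjusted p = 4.22e-05 and 0.0553).

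Actin itself and its direct partners (7 tested) gave 3 higher and 1 lower with the deposited scaling and 3 and 4 with the same total on confinement of cPLA_2_ WT cells (all genes 28.2% and 28.4%, and 20% and 41.3% with the same total): *Actg1* (0.89 and 0.67), *Capza2* (0.51 and 0.28), *Actb* (0.33 and 0.10) and *Cfl1* (-0.20 and -0.43). *Actg1* and *Actb* encode gamma- and beta-actin, *Capza1* and *Capza2* encode subunits of capping protein, and *Pfn1* and *Cfl1* are profilin and cofilin. With cPLA_2_ KO cells under confinement 3 were higher and 2 lower with the deposited scaling (22.8% and 23.4% of all genes). With the same total the counts were 2 and 2 (20.8% and 25.9% of all genes). The calls were *Actg1* (0.25 and 0.21), *Capza2* (0.21 and 0.17), *Cfl1* (-0.18 and -0.22), *Capza1* (0.16 and 0.12) and *Pfn1* (-0.15 and -0.19). For LPS 7 were higher with the deposited scaling, and 3 higher and 4 lower with the same total (all genes 37.2% and 34.3%, and 20.4% and 56.8% with the same total), where the 6 largest of 7 called were *Actb* (0.88 and 0.39), *Capza2* (0.73 and 0.23), *Actg1* (0.59 and 0.089), *Capza1* (0.37 and -0.13), *Cfl1* (0.33 and -0.17) and *Pfn1* (0.31 and -0.19).

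The 9 members did not share 1 pattern over the libraries. With the deposited scaling, Pearson's r with the mean of the members (log2 values, 18 libraries, each member part of that mean) was 0.98 for *Arpc2*, 0.96 for *Actr2*, 0.96 for *Actr3* and 0.91 for *Arpc5*, but 0.017 for *Arpc1b* and -0.19 for *Arpc5l*. On the same-total scale *Arpc4* (0.98) and *Arpc5l* (0.97) led, and *Actr2* (-0.31), *Actr3* (-0.33) and *Arpc5* (-0.23) were negative. Out of 10545 other genes with a symbol and a mean of at least 100, those most like the members' mean were *Pfn1* (0.985), *Yrdc* (0.982), *Edf1* (0.980), *Med28* (0.979) and *Ppp1r11* (0.979) with the deposited scaling and *Clta* (0.981), *Ffar2* (0.981), *Eid1* (0.981), *Atp5j* (0.980) and *Scp2* (0.980) with the same total. The 18 libraries fall into conditions and share the scaling, so these values describe the libraries and carry no test.

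Promoters are shown for *Actr2* and *Actr3*, the most alike pair of members over the 18 libraries with the deposited scaling (Pearson's r 0.994) and the next most alike, after *Arpc1a* and *Arpc1b* (0.958), with the same total (0.956), and for the isoform pair whose ratio differed without overlap between nonconfined and other libraries, *Arpc5* and *Arpc5l*. Each is the 250 bases before the start of the canonical GENCODE transcript in GRCm39, and all 9 members had one. Motifs were searched on both strands. The GC box, GGGCGG, was found in 5 of 9 (36.3% of all 21757 promoters of the same length). The CCAAT box was found in 3 of 9 (36.5% of all). The motif of ETS factors, CCGGAAG, was found in 3 of 9 (6.89% of all). The κB motif occurred in *Arpc5* alone (7.63% of all promoters), and the CArG box in *Arpc4* alone (1.40%). *Actr2* held the GC box, the CCAAT box and the ETS motif, and *Actr3* the CCAAT box. *Arpc5* held the κB motif, the CCAAT box and the GC box, and *Arpc5l* the GC box and the ETS motif. The windows of *Actr2* and *Arpc5* were 70.4% and 74.4% G or C, those of *Actr3* and *Arpc5l* 55.6% and 56.4%, against a median of 53.2% over all promoters. A match describes the letters and is no evidence of binding. The windows lie at chr11:20062939-20063188, minus strand (*Actr2*), chr1:125363638-125363887, minus strand (*Actr3*), chr1:152642042-152642291, plus strand (*Arpc5*), and chr2:38897806-38898055, plus strand (*Arpc5l*), and are printed in the direction of transcription with motif matches in capitals, none of which overlap.
Actr2: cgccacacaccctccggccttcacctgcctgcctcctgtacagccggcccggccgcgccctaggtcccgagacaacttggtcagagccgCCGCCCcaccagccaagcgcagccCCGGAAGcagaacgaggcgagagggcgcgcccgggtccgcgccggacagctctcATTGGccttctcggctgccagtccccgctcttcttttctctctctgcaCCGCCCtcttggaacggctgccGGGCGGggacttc
Actr3: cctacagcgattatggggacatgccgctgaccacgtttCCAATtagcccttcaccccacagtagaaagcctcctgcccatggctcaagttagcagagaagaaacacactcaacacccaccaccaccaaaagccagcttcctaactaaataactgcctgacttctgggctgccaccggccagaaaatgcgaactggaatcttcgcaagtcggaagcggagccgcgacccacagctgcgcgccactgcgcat
Arpc5: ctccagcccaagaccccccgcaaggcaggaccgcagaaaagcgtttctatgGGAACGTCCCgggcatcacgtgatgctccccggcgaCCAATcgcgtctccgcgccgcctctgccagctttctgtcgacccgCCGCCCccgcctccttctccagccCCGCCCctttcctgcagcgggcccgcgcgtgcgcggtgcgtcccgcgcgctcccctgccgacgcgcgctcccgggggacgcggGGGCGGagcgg
Arpc5l: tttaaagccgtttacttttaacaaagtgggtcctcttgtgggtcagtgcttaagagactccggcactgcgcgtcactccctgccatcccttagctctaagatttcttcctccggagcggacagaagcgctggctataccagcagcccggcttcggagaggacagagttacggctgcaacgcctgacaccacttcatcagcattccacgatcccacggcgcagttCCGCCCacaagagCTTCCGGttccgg

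Markers of other marrow cells also differed between the conditions, and no marker was at 0 in any library. The 7 neutrophil markers, led by *S100a9*, summed to 196006, 201089.95 and 199578 in nonconfined cPLA_2_ WT and 286085, 255327 and 276385 in nonconfined cPLA_2_ KO libraries. The sums were 138088, 132868 and 129934 (cPLA_2_ WT) and 278253, 295090.3 and 278879 (cPLA_2_ KO) in confined libraries, and 249085, 246859 and 241086 under the LPS cPLA_2_ WT label and 233770.1, 253264 and 241967 under the LPS cPLA_2_ KO label. They were thus lowest in confined cPLA_2_ WT libraries, where 6 of 7 fell with the deposited scaling and 7 with the same total. All 7 were higher in confined cPLA_2_ KO than in confined cPLA_2_ WT libraries on both scales. The 7 macrophage markers, led by *Csf1r* or *Cd14*, summed to 53189, 51113 and 51693 in nonconfined cPLA_2_ WT and 53083, 56913 and 55114 in nonconfined cPLA_2_ KO libraries. They reached 184636, 176315 and 176799 (cPLA_2_ WT) and 68011, 62633 and 65769.6 (cPLA_2_ KO) in confined libraries, and 128246, 136468 and 126416 under the LPS cPLA_2_ WT label and 130801, 122482 and 128372 under the LPS cPLA_2_ KO label, the high sums being those in which *Cd14* led. *Cd14* was the only 1 of the 7 to rise on confinement, while 3 fell in cPLA_2_ WT cells (5 with the same total) and 4 in cPLA_2_ KO cells on both scales. In confined cPLA_2_ KO against confined cPLA_2_ WT libraries 2 of 7 were higher and 2 lower (4 and 2 with the same total).

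The 4 eosinophil markers, led by *Prg2*, summed to 28181, 27896 and 27812 in nonconfined cPLA_2_ WT and 67608, 63231 and 65185 in nonconfined cPLA_2_ KO libraries. Their sums were 7418, 6941 and 6883 (cPLA_2_ WT) and 16396, 15911 and 16836 (cPLA_2_ KO) in confined libraries, and 39729.6, 23288 and 31432 under the LPS cPLA_2_ WT label and 23085, 39326 and 32103 under the LPS cPLA_2_ KO label. They differed between the genotypes already without confinement, where 3 of 4 were higher and 1 lower in cPLA_2_ KO libraries on both scales, and 3 of 4 fell on confinement of cPLA_2_ WT cells on both scales. The 5 mast cell and basophil markers, led by *Cpa3*, summed to 6123, 6341 and 6214 in nonconfined cPLA_2_ WT and 9678, 9285 and 9168 in nonconfined cPLA_2_ KO libraries. Their sums were lower under confinement, 2643, 2465 and 2493 (cPLA_2_ WT) and 4119, 4034 and 4146 (cPLA_2_ KO) in confined libraries, with 5 of 5 lower in each genotype on both scales, and the libraries labelled LPS had 6103, 5948 and 5982 under the LPS cPLA_2_ WT label and 5829.7, 6270.2 and 6429 under the LPS cPLA_2_ KO label. The 9 DC markers summed to 510412, 485233 and 489633 in nonconfined cPLA_2_ WT and 618195, 577362 and 607255 in nonconfined cPLA_2_ KO libraries. They summed to 485837, 454367 and 465986 (cPLA_2_ WT) and 429545, 415153 and 430242 (cPLA_2_ KO) in confined libraries, and 764169, 656835 and 696799 under the LPS cPLA_2_ WT label and 658417, 750755 and 716295 under the LPS cPLA_2_ KO label. On confinement 2 of 9, *Ccr7* and *Cd86*, rose and 5 fell in cPLA_2_ WT cells (2 and 7 with the same total), and 8 fell in cPLA_2_ KO cells on both scales. Since ARP2/3 subunits are made by all these cells, the part of a shift in cell types in the subunit values was not tested.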

How the data were processed

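Polyadenylated RNA was sequenced in 18 libraries, and the submitters' processing notes name STAR 2.7.5a, featureCounts 1.5.0, R 3.5.3, DESeq2 and the mouse build mm39 (GRCm39). The authors deposited normalized counts, here handled as a signal: gene counts divided by a size factor for each library. Dividing by the value of 1 read gave whole numbers for 100% of values (tolerance 0.01, largest deviation 6.98e-10), which recovered the reads, 33027230 to 61300021 per library. The 17875 genes that reached 10 normalized counts in 3 or more libraries were fitted with limma 3.58.1 (trend) in R 4.3.3 on log2(value + 1), with 1 mean for each of the 6 conditions over all 18 libraries. Benjamini-Hochberg adjusted p under 0.05 over all 17875 genes was the threshold in each comparison. The added 1 shrinks the fold change of a gene of low count.

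All fits were repeated after scaling each library to the mean total of the 18 libraries, and the same-total fits with a library left out, with a replicate block or with the compared conditions alone were chosen after seeing the data. Other alternatives were TMM scaling, no filter or one of 100, a pseudocount of 0.5 or 5, fits of the compared conditions alone, a replicate block, leaving out each library, and edgeR 4.0.16 and DESeq2 1.42.0 on the recovered reads. For confinement of cPLA_2_ WT cells edgeR called 5283 genes higher and 4819 lower and DESeq2 5219 genes higher and 5048 lower, and for LPS with labels pooled 6302 genes higher and 6483 lower, and 6506 genes higher and 6365 lower. The fitting code was tested on simulated data. Tables and plots were made in Python 3.11.15 with pandas 2.3.3, numpy 2.4.6, scipy 1.17.1 and matplotlib 3.10.9.

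Members and lists were chosen with earlier results of these data known. The genes named are all 9 members, *Pla2g4a* and 4 Y-linked genes as checks of the labels, genes of the lists past the threshold with the deposited scaling for confinement of either genotype and for LPS (up to 6 a list, largest log2 fold change first), and the 5 genes most like the mean of the members. *Actr3b*, *Itgax*, *Zbtb46*, *Flt3*, *Ccr7*, *Cd86* and *Cd14* are named beside these as a relative and as markers, and genes that missed the threshold are given by value. The interaction of list genes is given for *Whamm*, *Cyfip1*, *Arpin* and *Coro1c*, which were picked after seeing the data. The lists were WASP family and partners, the WAVE regulatory complex, the WASH complex, inhibitors and debranching factors, branch stabilisers, upstream GTPases, actin and direct partners, *Actr3b*, and markers of DCs, macrophages, neutrophils, mast cells and basophils, and eosinophils.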

Additional observations from a re-analysis of the deposited data

Results flagged for a closer look

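The effect of confinement differed between cPLA_2_ KO and cPLA_2_ WT cells by the test of the difference itself (limma, cPLA_2_ KO minus cPLA_2_ WT) for some subunits, and which ones depended on the scaling. With the deposited scaling the log2 difference was -0.20 for *Actr2*, -0.24 for *Actr3* and -0.32 for *Arpc3*. Once library totals were made equal it was 0.23 for *Arpc1b*, -0.13 for *Arpc3* and 0.23 for the entry joint between *Arpc4* and *Ttll3*. The median of all genes was 0.051 and 0.24 on these scales, and relative to it *Arpc1b* (-0.0087) and *Arpc4* (-0.010) lay near 0 with equal totals. *Arpc3* was called on both scales, but with equal totals the call (adjusted p = 0.0406) was lost when any 1 of 9 of the 12 libraries was left out (adjusted p between 0.0542 and 0.0882). It was also lost with a replicate block (adjusted p = 0.0539). Donor sex and genotype cannot be told apart in these 12 libraries. Cell markers differed in the same test. Of 7 neutrophil markers 6 were higher with the deposited scaling (7 with equal totals). Of 9 DC markers 7 were lower, *Ccr7* and *Cd86* among them (1 higher and 4 lower with equal totals). The part of these in the subunit differences was not tested.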

How the results depend on the processing

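With pseudocounts of 0.5 or 5 each of the 81 member log2 fold changes kept its direction and its side of the threshold. Scaling each library to the same total turned the sign of 23 of the 81, of which 17 passed the threshold with at least 1 of the scalings. For confinement of cPLA_2_ WT cells these 17 held *Actr2* (-0.091), *Arpc1a* (-0.19) and *Actr3* (-0.079), and between confined genotypes *Arpc2* (0.15) and *Arpc5* (0.11). For LPS, in the order labels pooled, cPLA_2_ WT label and cPLA_2_ KO label, they were *Arpc2* (-0.13, -0.14 and -0.11), *Arpc3* (-0.091, -0.048 and -0.13), *Arpc1a* (-0.42, -0.40 and -0.43) and *Arpc4* (-0.38, -0.35 and -0.41). The other 6 were *Arpc1a*, *Arpc2*, *Arpc5* and *Arpc5l* in the interaction (0.12, 0.13, 0.042 and 0.18) and *Actr2* and *Actr3* between nonconfined genotypes (-0.0026 and -0.021). The counts of members higher and lower with the same total were 1 and 6 for confinement of cPLA_2_ WT cells, 2 and 1 for the interaction, 6 and 0 between confined genotypes, and 3 and 6, 3 and 5, and 2 and 6 for LPS pooled, labelled cPLA_2_ WT and labelled cPLA_2_ KO. A filter of 100, which adjusts for fewer genes, gave 1 member higher for confinement of cPLA_2_ KO cells (*Arpc5*) and 1 for cPLA_2_ KO against cPLA_2_ WT confined cells (*Arpc4*). No filter, which adjusts for more genes, gave 3 lower for confinement of cPLA_2_ KO cells (*Actr3* lost). Fitting the compared conditions alone gave 2 lower for confinement of cPLA_2_ KO cells and 1 higher for cPLA_2_ KO against cPLA_2_ WT confined cells, and with the same total *Actr3* passed as lower for confinement of cPLA_2_ WT cells (adjusted p = 0.022) and *Arpc2* was lost for LPS under the cPLA_2_ KO label (0.0567). DESeq2 called 1 member higher between nonconfined genotypes, and TMM, edgeR and DESeq2 each gave 4 lower for the interaction (*Arpc5* added) and 2 lower for LPS pooled and for the cPLA_2_ KO label. The cause of these moves was not tested. Replicate numbers are shared between conditions, and whether same-numbered libraries deviate from their condition together was read from correlations of the deviations over genes. These were highest between confined genotypes, where 5 of 6 libraries went best with their own number (correlations between confined cPLA_2_ WT and cPLA_2_ KO libraries of 0.0402 to 0.338). The replicate block gave 2 members lower for LPS under the cPLA_2_ KO label and 3 lower for confinement of cPLA_2_ KO cells (*Actr3* lost, adjusted p = 0.0504). With the same total the block gave 0 lower for the interaction by limma (*Arpc3*, adjusted p = 0.0539), lost *Actr2* for confinement of cPLA_2_ WT cells (0.0579) and added *Arpc1b* as lower for confinement of cPLA_2_ KO cells (0.0481). Leaving out 1 library gave counts of 0 to 1 higher and 2 to 4 lower for confinement of cPLA_2_ KO cells, 3 to 4 lower for the interaction, 0 to 1 higher between confined and 0 to 3 between nonconfined genotypes, 6 to 7 higher and 1 to 2 lower for LPS pooled, 6 to 7 higher for the cPLA_2_ WT label, and 5 to 6 higher and 1 to 2 lower for the cPLA_2_ KO label. With the same total the ranges were 5 to 7 lower for confinement of cPLA_2_ WT cells, 0 to 1 higher and 4 to 6 lower for confinement of cPLA_2_ KO cells, 2 to 3 higher and 0 to 1 lower for the interaction, 4 to 6 higher and 0 to 1 lower between confined genotypes, and for LPS 2 to 3 higher under each label and 5 to 6 lower under the cPLA_2_ KO label. With 3 libraries a condition, small changes can be missed, so values that missed the threshold are not shown to be equal.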
